A study of Musca domestica with 29 samples.

Results

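Abdomens of house fly (Musca domestica) males that carry the male determiner on the Y chromosome were compared with abdomens of males that carry it on chromosome III. The first genotype, YM(III), is strain bwbCS, and the second, IIIM #2, is strain CSrab. The comparison took the 3 YM(III) and the 3 IIIM #2 male abdomen libraries, chosen by their labels, 6 of the 29 libraries of the series. Per the labels, all males share one isogenic background, from which IIIM #2 males depart by the IIIM chromosome and YM(III) males by both YM and 1 copy of chromosome III. A difference between these genotypes can therefore sit with the location of the determiner, with that copy of chromosome III, or with other differences between the strains, and these cannot be told apart here. The other males were YM (strain IsoCS), which depart by YM alone, and IIIM #1 (strain CS), a second IIIM strain, with 3 abdomen libraries each. Females gave 2 abdomen libraries, 1 of strain IsoCS and 1 of CSrab, labelled as isogenic among themselves. Abdomen and head were dissected from individual flies, whose ages the labels do not give, and poly(A) RNA was sequenced with a stranded kit. Nothing in the labels says whether replicates were reared apart, so the p-values measure only the spread between these flies.

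In the house fly a dominant male-determining factor can lie on the Y, on chromosome III or elsewhere, and natural populations differ in which chromosome holds it. Such chromosomes are called proto-Y chromosomes, since they have the inheritance of a Y but few visible differences from the chromosome they descend from. The determiner acts by keeping the splicing of transformer, the switch gene of female development, in the male form. The male abdomen holds testis, accessory gland, gut, fat body and body wall, so that a gene of any of these organs can differ in the RNA of the whole abdomen. In such bulk RNA, fewer cells of a type and less RNA per cell cannot be told apart.

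Values are normalized counts, the authors' read counts per gene divided by 1 factor per library. Depth was uneven. The YM(III) libraries held 2.77, 8.58 and 19.2 megareads (replicates 1 to 3) and the IIIM #2 libraries 4.63, 0.791 and 24.8 megareads. A single read was worth 8.80 units in IIIM #2 replicate 2 and 0.365 in replicate 3, so values near or under 10 are a few reads or none in the shallow library. Replicate 3 was the deepest library in each of the 4 male genotypes. The labels' tissue and sex held in the marker genes. The maternal gene bcd, which patterns the embryo, stood at 0 to 2.77 in YM(III), at 0 in IIIM #2 and at 78.2 and 181 in female abdomens. The yolk protein gene yp3 had 83.2 to 789 in YM(III), 49.3 to 343 in IIIM #2 and 2460 and 3487 in females. The clock neuropeptide gene pdf stayed at or under 8.80 in all 6 libraries, against 411 to 1620 in male heads. IIIM #2 replicate 1 stood apart in the sum of 23 abundant genes, which made up 12.9% of it and at most 2.22% of the other 5 libraries. LOC identifiers in the table carry no product name in the sources used here, and no role is given for them.

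Few genes passed the test between the genotypes, and most of those were lower in YM(III). Of 11342 genes tested with limma across the 12 male abdomen libraries, 45 passed an adjusted p of 0.05, which is 0.397% of those tested. Of these, 12 were higher in YM(III) (0.106%) and 33 were lower (0.291%). The libraries of the genotypes did not overlap at any of the 45, against 15.2% of all genes tested. The 45 were picked by p-values from these same libraries, so the lack of overlap adds no support. The median log2 difference of all genes was 0.02, and 1254 genes had an unadjusted p under 0.05. Same-numbered libraries of the genotypes deviated together (correlations of 0.16 to 0.49). Replicates 1 and 2 did so across numbers too (0.20 and 0.10), so the number mainly set replicate 3 apart. With the replicate number as a block 599 genes passed (5.28%), 113 higher (0.996%) and 486 lower (4.28%) in YM(III), among them all 45. The count of 45 rests on single libraries. It was 10 without YM(III) replicate 1, 274 without YM(III) replicate 2 and 5 without YM(III) replicate 3. It was 3, 6 and 14 without IIIM #2 replicates 1, 2 and 3. None of the 45 changed direction in those of the 19 alternatives that tested it, and 37 to 45 of them were tested in each. Because their libraries did not overlap, leaving out libraries or changing the filter or pseudocount could not reverse them, so this adds no support. Of the 45, 3 were called under every alternative: LOC101889706 and LOC101891025, higher in YM(III), and LOC101891811, lower.

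**Figure D1:**
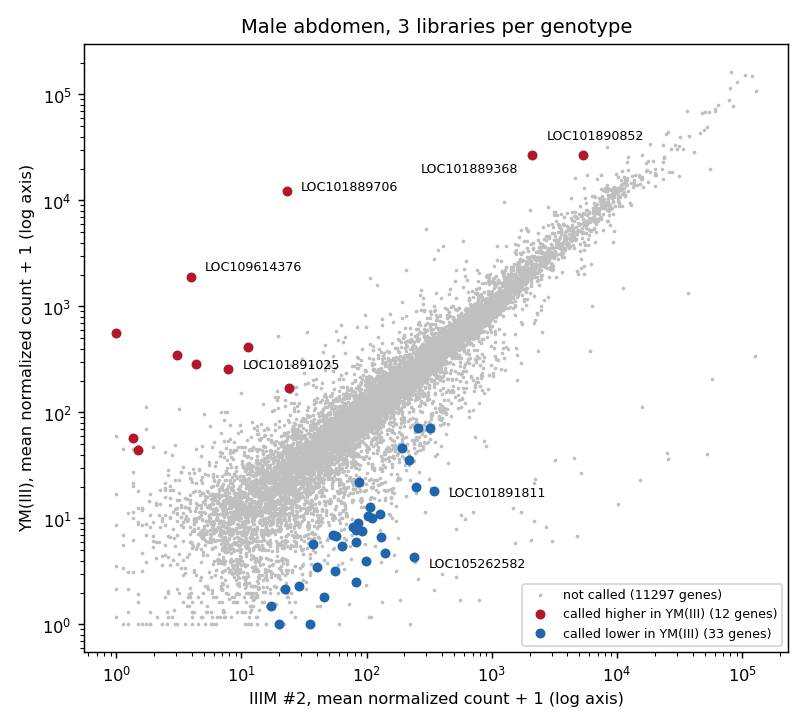
Mean normalized count plus 1 of each tested gene in YM(III) (vertical, log axis) against IIIM #2 (horizontal, log axis), 3 libraries each. The 12 genes called higher in YM(III) reach far above the diagonal up to means of 27115, whereas the 33 called lower lie at means of 345 or less in IIIM #2, 20 of them under 100.

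The genes higher in YM(III) had means of 43.0 to 27115 there. The largest fitted difference was at LOC109614376, assigned to Muller element B (the elements are the chromosome arms shared among flies), which had 1794, 2764 and 1148 in YM(III) and 0, 8.80 and 0 in IIIM #2. Every YM(III) library was over 1000, while IIIM #2 showed a single read in a single library. The log2 difference was 9.71 (SE 1.25, limma adjusted p = 0.0153). YM and IIIM #1 means were 0.522 and 6.93, so YM(III) stood apart from all 9 other male libraries.

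LOC101889706, an element D gene that the reference lists as a long non-coding RNA (lncRNA), had 14782, 8819 and 13318 in YM(III) and 10.7, 44.0 and 11 in IIIM #2. The difference was 562-fold (log2 9.34, SE 0.84, limma adjusted p = 0.00151). Here IIIM #2 was the genotype that stood apart: YM averaged 4055 and IIIM #1 averaged 6869, and all 9 other male libraries lay above the 3 of IIIM #2. It was lower in IIIM #2 than in YM (adjusted p = 0.00706) and than in IIIM #1 (adjusted p = 0.00579), comparisons that share the IIIM #2 libraries. Female abdomens had 0.164 and 0, and male heads at most 9.60.

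LOC101896776 (element E) had 19.4, 545 and 1103 in YM(III) and no read in any of the 9 other male abdomen libraries or in the females. Its YM(III) mean was at least 50.7-fold above the value that 3 reads per library would give in IIIM #2 (limma adjusted p = 0.0274). YM(III) replicate 1 lay far below the other libraries of its genotype, and edgeR (adjusted p = 0.252) and DESeq2 (0.206) did not call the gene.

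LOC109612235 had 271, 287 and 486 in YM(III) against 1.79, 0 and 4.38 in IIIM #2 (log2 7.09, SE 1.00, limma adjusted p = 0.0208). LOC101888074 (element C) had 457, 288 and 116 against 5.37, 0 and 4.75 (log2 6.23, SE 1.10, adjusted p = 0.0455). YM and IIIM #1 averaged 7.53 and 6.77 at the former and 14.8 and 4.87 at the latter. The high abdomen level was thus seen in YM(III) alone of the 4 genotypes. At LOC101888074, however, YM(III) against IIIM #1 was not called (limma adjusted p = 0.0922). Heads of all 4 genotypes expressed LOC101888074, with means of 368 in YM(III), 294 in IIIM #2, 205 in YM and 396 in IIIM #1. LOC109613756 (element A) had 99.7, 52.1 and 17.5 in YM(III) and only 1.10, 3 reads, in 1 IIIM #2 library (log2 5.18, SE 0.89, adjusted p = 0.0409). LOC101893880, listed as a pseudogene on element E, had 125, 175 and 205 against 19.7, 8.80 and 39.8 (log2 3.03, SE 0.50, adjusted p = 0.0349). Reads of a pseudogene and of its source gene may have been split by the authors' counting, so this value is uncertain. LOC101898393, outside the naming rule because its higher mean was 43.0, had 22.1, 63.7 and 43.3 against 0, 0 and 1.46 (log2 4.91, SE 0.79, adjusted p = 0.0303).

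**Figure D2:**
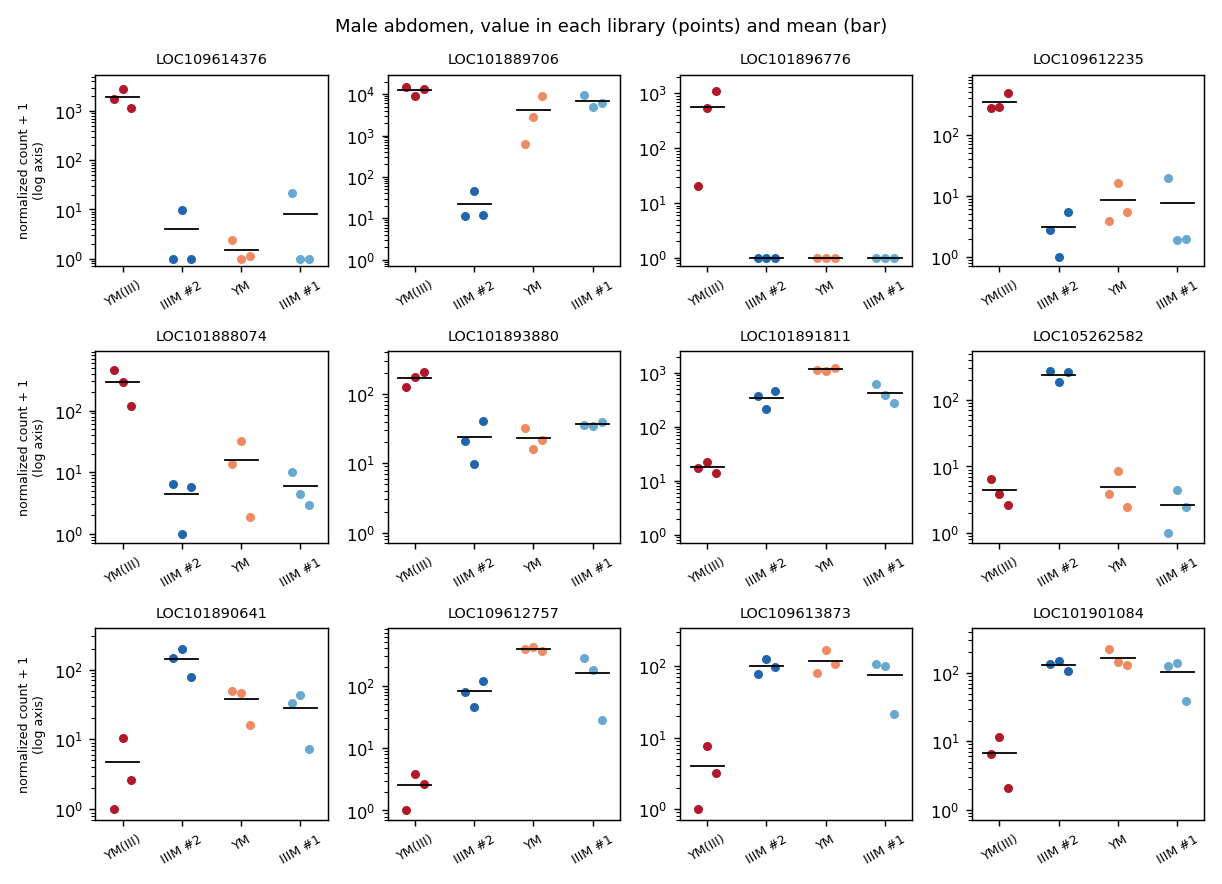
Normalized count plus 1 (log axis) in every male abdomen library of 4 genotypes at 6 genes called higher and 6 called lower in YM(III). Points are libraries and bars are means. LOC101889706 and LOC105262582 are set apart by IIIM #2, most others by YM(III).

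The 5 called genes with another called gene within 5 entries of the reference's gene order formed 2 groups, all higher in YM(III). The first lies among successive lncRNA genes, of which 4 are in the table, on element D, and the first and last of those, LOC101889368 and LOC101889706, were called. LOC101889368 had 33270, 18416 and 29650 in YM(III) and 1108, 1778 and 3413 in IIIM #2, without overlap. The fold was 12.9 (log2 3.80, SE 0.55, limma adjusted p = 0.0233), with YM at 2477 and IIIM #1 at 13562. The genes between them were not called. LOC101889585 had 156438, 215717 and 120685 in YM(III) against 95156, 64352 and 82105 in IIIM #2 (log2 1.01, SE 0.33, adjusted p = 0.255). It was the most abundant gene in YM(III) replicates 1 and 2 and took 1.15% to 2.61% of the YM(III) libraries. LOC101889483 had 23133, 34713 and 20064 against 11542, 10397 and 14460 (log2 1.07, SE 0.32, adjusted p = 0.204). In all 4 genes every YM(III) library exceeded every IIIM #2 library, and female abdomens had at most 3.93. Whether the authors counted by strand was not stated in the labels or notes, so reads of overlapping neighbours could not be separated.

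The second group lies among protein-coding genes with no assigned element. LOC101890852 had 30009, 28559 and 22778 in YM(III) and 6010, 6004 and 3994 in IIIM #2, a 5.08-fold difference of means (log2 2.36, SE 0.37, limma adjusted p = 0.0278). LOC101891025 had 299, 317 and 147 against 7.16, 8.80 and 4.38, a 37.5-fold difference (log2 5.0, SE 0.37, adjusted p = 0.000503). LOC101891197 had 426, 516 and 296 against 21.5, 0 and 9.50, a 40.0-fold difference (log2 6.03, SE 0.95, adjusted p = 0.0301). IIIM #2 was the lowest of the 4 genotypes at all 3, with YM means of 10179, 146 and 79.5 and IIIM #1 means of 13221, 114 and 152. LOC101891888, between the first and second of these, stayed at or under 13.8 in both genotypes and was not called (adjusted p = 0.776). LOC101890680, the entry before them, had 4.93 to 34.7 in YM(III) and 2.19 to 8.80 in IIIM #2 and was not called (log2 1.26, adjusted p = 0.735).

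**Figure D3:**
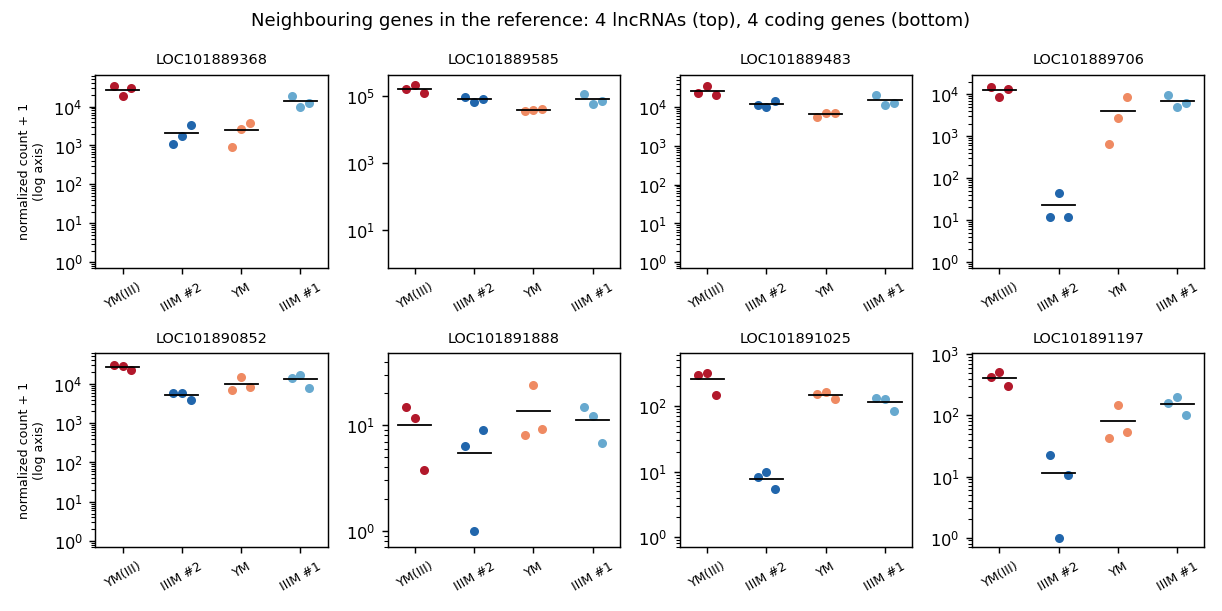
Normalized count plus 1 (log axis) by library (points) with means (bars) for 2 groups of neighbouring genes. IIIM #2 averages 21.9 at LOC101889706 while the other genotypes average 4055 to 12306, and at 6.78 at LOC101891025 while the others average 114 to 254.

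The genes lower in YM(III) were mostly low or moderate in level and mostly set apart by YM(III) itself. At 29 of the 33 the YM(III) libraries lay outside the 9 other male libraries, against 3.62% of all genes tested, and at 5 of the 33 the IIIM #2 libraries did, against 1.19%. The YM mean exceeded the IIIM #2 mean at 28 of the 33, but the IIIM #1 mean did so at only 12. The shares of all genes tested are not given for these 2 counts. YM(III) was also lower than YM at 30 of the 33 by the same limma fit (9.23% of all genes were called in that comparison) and lower than IIIM #1 at 16 (0.185%). These comparisons share the YM(III) libraries. IIIM #2 was called against YM at 3 of the 33 (0.855% of all genes) and against IIIM #1 at 2 (0.0441%). The female mean was under 1 at 23 of the 33, while others had female reads, up to a mean of 622 at LOC101899047. Only 11 of the 33 were male-limited as defined below. Of the 33, 29 were listed as protein-coding, with the other 4 not matched in the reference. The shares of all genes tested are not given for these counts.

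LOC101891811 (element B) had 16.6, 21.2 and 13.1 in YM(III) and 370, 211 and 453 in IIIM #2. This was a 20.3-fold difference (log2 −4.22, SE 0.35, limma adjusted p = 0.000812). YM averaged 1160 and IIIM #1 averaged 429, so YM(III) lay below all 9 other male libraries. Female abdomens had 1.15 and 1.79.

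At LOC105262582 it was IIIM #2 that stood apart. The gene had 5.54, 2.89 and 1.64 in YM(III) and 268, 185 and 262 in IIIM #2 (log2 −5.86, SE 0.71, limma adjusted p = 0.0137), with YM at 3.99 and IIIM #1 at 1.63. The high level was thus that of IIIM #2 alone, also against IIIM #1, which carries the determiner on the same chromosome. LOC109613887, chosen after its values were seen since its mean was under 50, had no read in YM(III), YM, IIIM #1 or females and 26.8, 44.0 and 32.2 in IIIM #2. The IIIM #2 mean was at least 8.02-fold above what 3 reads per library would give in YM(III) (adjusted p = 0.0139).

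At LOC101890641, YM(III) had 0, 9.65 and 1.64 and IIIM #2 had 147, 194 and 77.5 (log2 −5.43, SE 0.94, limma adjusted p = 0.0417), with YM (36.4) and IIIM #1 (27.2) between them. LOC109612757 (element A) had 0, 2.89 and 1.64 against 78.7, 44.0 and 119 (log2 −5.12, SE 0.80, adjusted p = 0.0278), with YM at 386 and IIIM #1 at 160. LOC101890668 (element E) had 11.1, 37.6 and 7.12 against 268, 202 and 266 (log2 −3.97, SE 0.50, adjusted p = 0.0152). At all 3 the genotypes were separated by a wide gap, and YM(III) replicate 2 was the highest YM(III) library. That library was also the highest of YM(III) at LOC109613873 (6.75 against 76.9 to 123 in IIIM #2), LOC101901084 (10.6 against 106 to 150) and LOC101888263 (13.5 against 60.8 to 111). The remaining genes named by size, LOC101888009, LOC101891743, LOC101898834 and LOC101890427, had YM(III) libraries of 0 to 22.2 and IIIM #2 libraries of 52.8 to 141, with log2 differences of −3.91 to −4.41 and limma adjusted p of 0.0274 to 0.0496. Every one of these except LOC105262582 and LOC109613887 was seen in all 3 of the YM, IIIM #1 and IIIM #2 genotypes and was lowest in YM(III).

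Because the female mean was under 1 at 23 of the 33 lower genes, genes limited to the male abdomen were described as a whole. Apart from the filter on low values the set was defined without the 6 abdomen libraries, as genes with a mean under 1 in female abdomens and under 1 over the 12 male heads, and it was chosen after values had been seen. It therefore has no test, and since the lower calls prompted it, the shares of it that were called are no support. Of 2459 such genes 483 passed the filter on low values, which any of the 4 male genotypes could meet. Their median log2 difference was −2.47 (quartiles −2.96 to −1.24), beside 0.04 for the other 10859 genes, and 88.8% of them were below 0, beside 46.5%. Without the filter on low values their median was −0.15. The libraries did not overlap at 235 of the 483 with YM(III) lower and at 13 with YM(III) higher. Among the 10859 other genes these counts were 822 and 654. limma called 11 lower (2.28%, beside 0.203% of the other genes) and 2 higher (0.414%, beside 0.0921%), LOC109614376 and LOC109612235. With the replicate block 198 were lower (41%) and 5 higher (1.04%), beside 2.65% and 0.995% of the other genes.

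The median male-limited gene had 5.54, 18.3 and 2.19 in YM(III) and 39.4, 44.0 and 33.6 in IIIM #2, without overlap. It had 82.3, 99.5 and 44.4 in YM and 62.4, 55.8 and 15.5 in IIIM #1, so YM(III) replicate 2 exceeded IIIM #1 replicate 3. The summed values of the 483 genes overlapped through YM(III) replicate 2, with 36066, 92709 and 29235 in YM(III) and 88493, 88288 and 69864 in IIIM #2. Replicate 3 had the lowest median in every male genotype. Among these 483 genes the median log2 difference was negative in each range of expression. It went from −1.63 for a mean under 20 to −2.83 between 100 and 300 and −1.94 at 1000 and above. Genes that failed the filter on low values are not in these ranges. Ordered by male against female difference in YM and IIIM #1 males, the 557 genes over 6 log2 units male-biased had a median of −2.47, whereas the 5 other ranges of sex bias had medians of 0.00 to 0.16. How much testis or accessory gland each dissected abdomen held was not measured and its part in these values was not tested.

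**Figure D4:**
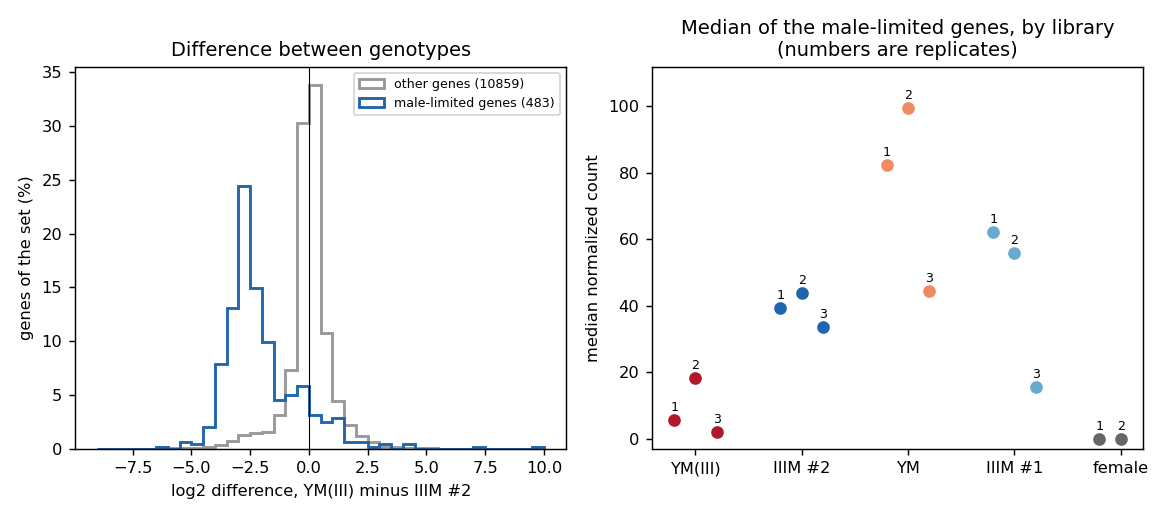
Left, share of genes (percent of each set) by log2 difference, YM(III) minus IIIM #2, for the 483 male-limited genes and the 10859 others. Right, the median normalized count of the male-limited genes in each abdomen library (numbers mark replicates), with YM(III) at 2.19 to 18.3 and IIIM #2 at 33.6 to 44.0.

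Heads of the same 2 genotypes were sequenced as other libraries and normalized in another table, in which limma called 59 of 12060 genes (0.489%). Of the 45 abdomen genes 19 were tested in head, and 6 were called there, all in the abdomen's direction. LOC101896776 had 75.5 to 459 in YM(III) heads and no read in IIIM #2 heads (head log2 7.48, SE 0.63, limma adjusted p = 0.000343). LOC101898393 (head log2 6.19), LOC101891025 (3.15) and LOC101893880 (1.82) were also higher in YM(III) heads. LOC105262582 (head log2 −3.99) and LOC109613887 (−4.66) were lower. With the replicate block in both fits, 52 genes were called in both tissues in the same direction, of 599 in abdomen and 249 in head (2.06%). The male-limited genes could not be tested in heads, where by definition they have few reads.

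**Figure D5:**
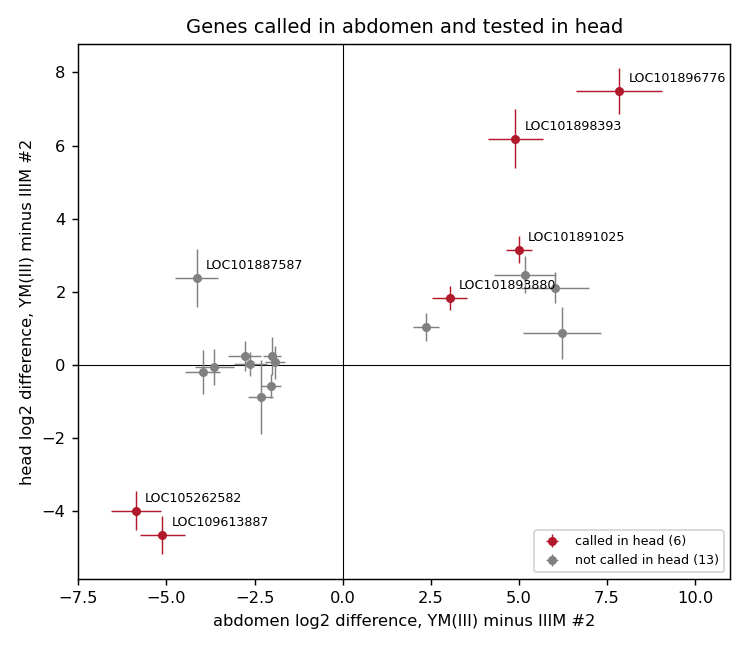
Log2 difference, YM(III) minus IIIM #2, in head (vertical) against abdomen (horizontal) for the 19 called abdomen genes that were tested in head, with bars of 1 SE. Genes called in head, 4 higher and 2 lower, lie in the quadrants of equal sign. LOC101887587, not called in head, lies in that of opposite sign. Other genes not called in head lie there too, with head log2 differences of 0.03 to 0.24.

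The genotypes differ in chromosome III, which corresponds to Muller element A. Of the 33 called genes with an assigned element 4 were on element A (12.1%), beside 18.0% of the genes tested. LOC109613756 was the single one higher in YM(III), and LOC109612757, LOC101901084 and LOC101898834 were lower. Element B held 9 (27.3% beside 17.0%), C held 5 (15.2% beside 21.6%), D held 7 (21.2% beside 18.1%) and E held 8 (24.2% beside 25%). None was on element F, the X chromosome, with 34 genes tested. With the replicate block, element A held 29 of the 73 genes higher in YM(III) (39.7%) and 67 of the 400 lower (16.8%), or 20.3% of both together. The median log2 difference of the 1738 element A genes was 0.10, against −0.01 to 0.02 on the other elements. For the 1682 tested genes with no assigned element it was 0.08. No element was assigned to 12 of the 45 called genes (26.7%), beside 14.8% of those tested.

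Genes with a symbol in the table, which cover immunity, detoxification, stress proteins and physiology, gave no call in abdomen. Of 53 such genes 44 were tested and 0 were called, also 0 by edgeR and 0 by DESeq2, with 4 at an unadjusted p under 0.05. Their median log2 difference was 0.05, beside 0.02 for all genes.

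Only IR25a, a co-receptor of the ionotropic receptors of smell, taste and humidity sensing in Drosophila, was called once the replicate block was added. It had 38.8, 75.2 and 10.4 in YM(III) and 204, 123 and 86.6 in IIIM #2 (log2 −2.0, SE 0.77). The libraries did not overlap. The limma adjusted p was 0.333, and 0.0203 with the block. YM had 146 to 429, IIIM #1 had 53.8 to 238 and females had 20.2 and 26.4.

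CPI had 1237, 9156 and 1855 in YM(III) and 9597, 10546 and 7453 in IIIM #2 (log2 −1.72, SE 0.63, limma adjusted p = 0.307). YM(III) replicate 2 lay inside the IIIM #2 range. Without it the adjusted p was 0.0151 (log2 −2.59). CYP12A2, a cytochrome P450 (the oxidases that act on toxins and hormones), had 349, 214 and 268 against 190, 159 and 183 (log2 0.62, SE 0.23, adjusted p = 0.321), without overlap. CYB2 had 83.0, 59.8 and 37.8 against 37.6, 17.6 and 23.0 (log2 1.17, SE 0.51, adjusted p = 0.416), also without overlap. The 6 tested P450 and reductase genes had log2 differences of −0.81 to 0.62, with CYP6D3 at 9171, 19124 and 23613 in YM(III) and 16296, 18055 and 25713 in IIIM #2. The glutathione transferases, which conjugate toxins, were at −0.23 (GST) and −0.21 (GST-6A). Of the other detoxification genes, the carboxylesterase MdaE7 was at 0.34 and the nuclear receptor HR96 at 0.00.

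Antimicrobial genes were the most variable of the lists, with a median log2 difference of −0.96 over 4 genes. Diptericin, a peptide against Gram-negative bacteria, had 13.8, 2.89 and 0 in YM(III) and 1.79, 423 and 107 in IIIM #2 (log2 −3.70, SE 3.08, limma adjusted p = 0.796). Lysozyme, which cuts bacterial cell walls, had 116, 29.9 and 399 against 26.8, 26.4 and 55.5 (log2 1.69, SE 1.19, adjusted p = 0.724). In both the libraries overlapped between the genotypes. Stress genes had small differences. The heat shock gene HSP70 had 33267, 30233 and 34849 against 24932, 35310 and 32558 (log2 0.10, SE 0.25), and the small heat shock gene hsp20 was at 0.58. The chaperonin subunits CCT-delta and CCT-eta, of the complex that folds actin and tubulin, were at 0.36 and 0.15. The superoxide dismutases SOD and SOD2 were at −0.60 and 0.06, and the serpins Spn2 and SPN13, protease inhibitors, at −1.71 and −0.79.

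Sxl, the sex switch of Drosophila, had 266, 237 and 244 in YM(III) and 315, 361 and 264 in IIIM #2 (log2 −0.32, SE 0.22, limma adjusted p = 0.721), and 704 and 794 in females. The yolk gene yp3 had a log2 difference of 1.25 (SE 0.86, adjusted p = 0.716). The rest of the tested lists lay between 0.03 and 0.51: the channel genes para-like (0.32) and nAChRbeta3 (0.03), ODC, the first enzyme of polyamine synthesis (0.37), TPS, which makes trehalose phosphate (0.06), the Wnt pathway gene armadillo (0.34), the EGF receptor antagonist argos (0.17), the water channel AQP (0.16) and the protease caspase-1 (0.51). None passed the test, and an adjusted p over the threshold does not show that the levels were equal.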

How the data were processed

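The values used are the authors' deposited normalized counts, a signal on a linear scale that equals read counts divided by 1 factor per library, in 1 table per tissue. All values (100%) were whole multiples of 1 read within 0.001 reads, which let the reads per gene be recovered and summed to the depth. The submitters' processing notes name the tools HISAT2 0.12.2 and HTSeq 0.9.1, with CASAVA 1.8 and DESeq2 1.16.1, but no genome build. The table also holds the authors' deposited mean values, log2 fold changes and adjusted p-values for other pairs of strains, which were not used here. Muller elements are those of the deposited table. Names, biotypes and gene order come from the RefSeq table of another assembly, in which 13644 of 16540 identifiers matched and 2896 did not. Its coordinates were not used.

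Genes that reached 10 units in 3 or more of the 12 male libraries of a tissue were tested with limma 3.58.1 (R 4.3.3) on log2(value + 1). The fit had 1 mean per genotype, a variance trend and robust moderation, with two-sided p adjusted by Benjamini-Hochberg over all genes tested and a threshold of 0.05. Fold changes on this scale understate low genes, and fitted values against a group at 0 are no bound, so those genes are set against 3 reads per library. The procedure was tested on simulated data. An exact test of 3 against 3 libraries cannot go below 0.1 and was not used.

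Deviations from the genotype means of same-numbered YM(III) and IIIM #2 libraries correlated across genes at 0.23, 0.16 and 0.49 for replicates 1, 2 and 3. Libraries of different numbers did so at 0.20 and 0.10 between replicates 1 and 2, and at −0.38 to −0.24 where 1 of them was replicate 3, so the numbers mainly set replicate 3 apart. Since all same-numbered values pass 0.1, the fit with the number as a block is given beside results it changes. The pairing comes from the data and the shared numbers of the labels, which name no shared batch. Replicate 3 was the deepest in each male genotype.

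Genes named by size are the 12 largest called differences in each direction among genes whose libraries did not overlap and whose higher mean was at least 50. Of each list of symbols the 2 with the smallest p are named, and genes called under every alternative that keeps the libraries. The comparison, lists and tests were chosen with earlier results of these data known. Alternatives were TMM factors, other filters and pseudocounts, the 6 libraries alone, edgeR 4.0.16 and DESeq2 1.42.0 on recovered reads, voom with quality weights, and fits without libraries.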

Additional observations from a re-analysis of the deposited data

Results flagged for a closer look

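LOC101887587 (element B) differed in opposite directions in the 2 tissues. In abdomen it had no read in YM(III) and 16.1, 8.80 and 31.4 in IIIM #2 (log2 −4.14, limma adjusted p = 0.0242), at least 4.39-fold higher than 3 reads per library would give. In head it had 2.40 to 17.1 in YM(III) and 0 to 1.21 in IIIM #2 (log2 2.38, adjusted p = 0.426). The difference between the tissues was not tested.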

How the results depend on the processing

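No called gene changed direction in an alternative that tested it, while the number of calls moved widely. Alternatives that only changed the libraries, filter or pseudocount could not change the direction, since the libraries did not overlap at any of the 45. All 45 were tested where libraries and filter were kept, 37 with a mean of at least 50, 41 with replicates 1 and 2 alone, and 43 in the other fits with fewer libraries. The count of 45 genes (12 higher and 33 lower in YM(III)) became 24 (6 and 18) with a mean of at least 50, 19 (5 and 14) with a pseudocount of 0.1, 8 (5 and 3) from the 6 libraries alone, 17 (5 and 12) with edgeR, 346 (83 and 263) with DESeq2, 27 (11 and 16) with voom quality weights, 599 (113 and 486) with the replicate block, 614 (104 and 510) with replicate 3 as a covariate and 7 (4 and 3) without both libraries under 1 megaread. TMM factors gave 60, no filter 54, a pseudocount of 5 gave 44, and replicates 1 and 2 alone 42, of which 10 were among the 45. Leaving out 1 library gave 3 to 274 calls, 2 to 14 higher and 1 to 260 lower. The share of higher calls was 26.7%, and 18.9% with the block, 62.5% from the 6 libraries alone, 57.1% without both shallow libraries and 40.7% with voom.

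The 6 genes called in both tissues became 1 with a mean of at least 50, 1 with a pseudocount of 0.1, 3 from the 6 libraries, 3 with edgeR, 44 with DESeq2, 11 with voom, 52 with the replicate block, 60 with the replicate 3 covariate and 1 without both shallow libraries, and 1 to 5 without single libraries. The element A share of 12.1%, under the 18.0% of tested genes, was over it with DESeq2 (21.6%), no filter (21.1%), the block (20.3%), the replicate 3 covariate (20.9%) and replicates 1 and 2 (18.8%), and became 0 from the 6 libraries, with edgeR and without both shallow libraries, and 0 to 15.9% without single libraries. The 0 calls among genes with a symbol became 1 with the block and 1 with the replicate 3 covariate, both IR25a, and 0 to 1 without single libraries. The male-limited median of −2.47 became −0.15 with no filter and ranged from −3.26 to −1.70 without single libraries. Its 11 lower calls became 17 with TMM, 6 with a mean of at least 50, 5 with a pseudocount of 0.1, 0 from the 6 libraries, 2 with edgeR, 65 with DESeq2, 3 with voom, 198 with the block, 203 with the replicate 3 covariate, 7 with replicates 1 and 2, 0 without both shallow libraries and 0 to 107 without single libraries. A male-limited threshold of 0.5 gave 5 and one of 5 gave 19, alternatives chosen after seeing the data. The cause of these changes was not tested, apart from fewer libraries or genes where an alternative removes them.

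Among genes not called, the log2 difference changed sign at HR96 (−0.038 with TMM, −0.0014 with edgeR, −0.0021 with DESeq2, −0.087 with voom, −0.049 with replicates 1 and 2, −0.076 without both shallow libraries), CCT-eta (−0.062) and SOD2 (−0.067) without both shallow libraries, para-like (−0.050 with voom, −0.044 with replicates 1 and 2), nAChRbeta3 (−0.012 with TMM), TPS (−0.113 with voom, −0.133 with replicates 1 and 2, −0.208 without both shallow libraries), armadillo (−0.037 with voom) and argos (−0.0019 with DESeq2, −0.083 without both shallow libraries). Without single libraries the ranges crossed 0 at CYP6D3 (−0.57 to 0.11), GST (−0.74 to 0.41), HR96 (−0.076 to 0.12), HSP70 (−0.051 to 0.20), CCT-eta (−0.062 to 0.33), SOD2 (−0.067 to 0.18), para-like (−0.48 to 1.04), nAChRbeta3 (−0.52 to 0.71), TPS (−0.46 to 0.52), argos (−0.083 to 0.54) and AQP (−0.14 to 0.63). Depth limits genes under about 10 units, since 3 reads are worth 26.4 in IIIM #2 replicate 2 and 8.30 in YM(III) replicate 1.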

Other observations

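Some very abundant genes had widely different means in the genotypes without being called. Of the uncalled genes with a mean of at least 1000 in IIIM #2 and at least 10 times the YM(III) mean, 23 were found, a rule chosen after values had been seen. LOC101892639 had 341075, 38382 and 32.9 in IIIM #2 and 285, 30.9 and 713 in YM(III) (limma adjusted p = 0.540). LOC101891419 had 152163, 5344 and 6.21 against 80.3, 3.86 and 34.0, and LOC101896326 had 148061, 23311 and 9.14 against 435, 15.4 and 174. IIIM #2 replicate 1 was the highest IIIM #2 library at 21 of the 23 and replicate 3 the lowest at all 23. Replicate 2 was the highest at LOC101887561 and LOC101898788. The means thus rest on 1 or 2 of the 3 libraries, as at LOC101900269, with 51980, 24702 and 4.38.

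Together the 23 genes made up 12.9% of IIIM #2 replicate 1, 2.22% of replicate 2 and 0.00503% of replicate 3. They took 0.0113% to 0.0506% of the YM(III) libraries and 0.280% to 1.85% of those of YM and IIIM #1, where IIIM #1 replicate 3 and YM replicate 2 (1.68%) were high. Their limma adjusted p ranged from 0.234 to 0.768. All 23 had a mean of at least 100 over the 12 male heads. In IIIM #2 the heads ran opposite to the abdomens of the same number, with LOC101892639 at 3.53, 72.7 and 41961 in head replicates 1 to 3. Head replicate 3 exceeded head replicate 1 at 21 of the 23, and the 23 genes made up 0.0405%, 0.0472% and 0.650% of those heads, and 0.782% to 1.01% of YM(III) heads. The labels do not say that head and abdomen of 1 number came from 1 fly, and whether tissue carried over at dissection has a part in these values was not tested. In the other direction 4 uncalled genes had a mean of at least 1000 in YM(III) and at least 10 times that of IIIM #2. The libraries did not overlap at 3 of those 4 and at 1 of the 23, against 15.2% of all genes tested. Both sets were picked by means of these same libraries, so these counts add no support.

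A pair of uncalled genes had no read in 1 of the genotypes. LOC101894156 (element A) had 13.8 to 148 in YM(III), at least 5.43-fold above what 3 reads per library would give in IIIM #2 (limma adjusted p = 0.0854). LOC109613538 (element D) had 16.1 to 26.4 in IIIM #2, at least 4.88-fold above that value in YM(III) (adjusted p = 0.0991). Neither had a read in the heads of these genotypes.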
